A study of Mus musculus with 8 samples.

Results

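Tau, the product of Mapt, and 9 further proteins that bind microtubules or free tubulin were followed in the cortex of 8 mice. The 10 genes were taken by their names in the deposited count table, which lists 54532 genes, and all 10 had a single entry there: Mapt, Map2, Map4, Map1a, Map1b, Map6, Dcx, Stmn1, Stmn2 and Stmn3. PS19 mice (4 mice: m677, m668, m665 and m659) carry a transgene for human 1N4R tau with the P301S mutation, placed under the promoter of the mouse prion protein gene. Adrb1-A187V;PS19 mice (4 mice: m671, m661, m660 and m658) carry the same transgene and are heterozygous for an A187V knock-in allele of Adrb1, the gene of the β1-adrenergic receptor. Both groups were on a C57BL/6 background and 8 mo old, each mouse gave 1 bulk RNA-seq library, and neither group lacks the tau transgene, so every difference given here is between mice that all make P301S tau. The question asked of these genes was whether the receptor mutation goes with a different level of the RNA of tau or of the other proteins on its microtubules.

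Microtubules are polymers of α- and β-tubulin that carry axonal and dendritic transport. Tau, found mainly in axons, and MAP2, found mainly in dendrites, are related proteins that bind along the lattice through similar repeats, and MAP4 is their relative in cells of many kinds. MAP1A and MAP1B form another family of lattice-binding proteins, MAP6 stabilizes microtubules against cold, doublecortin (Dcx) binds microtubules in migrating and immature neurons, and the stathmins (Stmn1, Stmn2 and Stmn3) hold tubulin dimers and favour depolymerization. In tauopathies, tau leaves the microtubule and aggregates, and P301S lies in the repeats by which it binds.

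Library totals ran from 14653222 to 21223754 counts in the PS19 mice and from 16865651 to 20802158 in the Adrb1-A187V;PS19 mice. The 10 genes together held 0.624 to 0.654% of the counts of a PS19 mouse and 0.617 to 0.641% of those of an Adrb1-A187V;PS19 mouse. Fixed markers of cortical excitatory neurons had a summed level of 1677 to 1974 CPM (counts normalized to the library size) in PS19 mice. In Adrb1-A187V;PS19 mice it was 1579 to 1761 CPM, and none of the 10 markers was at 0. Striatal projection neuron markers summed to 977 to 1950 CPM in PS19 and 1021 to 2186 CPM in Adrb1-A187V;PS19 mice. These sums therefore do not show how clean the cortical dissection was. Adrb1 itself had 32.3, 39.4, 41.2 and 34.2 CPM in the PS19 mice and 39.5, 36.0, 30.7 and 33.9 CPM in the Adrb1-A187V;PS19 mice, and the ranges overlapped; a point mutation need not alter the level of its RNA, so Adrb1 gives no check of the genotype. All values are from bulk tissue, in which fewer cells of a type and less RNA per cell cannot be told apart.

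Promoter sequence is shown for the 4 genes whose RefSeq promoter entry begins outside the gene as annotated by GENCODE, since they differ in base composition while being abundant in the same tissue. Each line gives the bases from 250 to 71 before the RefSeq start site, 5′ to 3′ on the strand of the gene, and capitals mark any match on either strand to GGGCGG (the GC box), the TATA box with its letters TATAAA, the CRE half-site with its letters TGACG or the E-box with its letters CACGTG. In GRCm38.p6 the windows are chr1:66175079-66175258 for Map2 and chr2:121289352-121289531 for Map1a on the plus strand, and chr13:99516673-99516852 for Map1b and chr2:181314571-181314750 for Stmn3 on the minus strand.
Map2: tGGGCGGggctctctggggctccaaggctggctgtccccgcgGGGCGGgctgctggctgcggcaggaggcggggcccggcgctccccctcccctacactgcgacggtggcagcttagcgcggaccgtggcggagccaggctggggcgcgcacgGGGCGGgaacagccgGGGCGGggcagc
Map1a: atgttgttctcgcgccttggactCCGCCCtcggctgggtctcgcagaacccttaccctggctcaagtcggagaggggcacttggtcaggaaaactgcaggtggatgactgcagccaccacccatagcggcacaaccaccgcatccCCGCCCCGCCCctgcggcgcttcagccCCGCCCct
Map1b: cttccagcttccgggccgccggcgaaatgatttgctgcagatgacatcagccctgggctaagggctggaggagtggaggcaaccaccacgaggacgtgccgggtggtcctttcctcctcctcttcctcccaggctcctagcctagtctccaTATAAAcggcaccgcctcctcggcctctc
Stmn3: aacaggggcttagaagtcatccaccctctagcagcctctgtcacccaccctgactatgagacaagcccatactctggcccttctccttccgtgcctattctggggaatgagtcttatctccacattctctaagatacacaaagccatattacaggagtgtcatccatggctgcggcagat
The Map2 window was 79.4% G or C, with 20 CG dinucleotides and 4 GC boxes. Map1a had 66.1% G or C, 13 CG dinucleotides and 4 GC boxes. Map1b had 62.2%, 10 CG dinucleotides, no GC box and 1 TATA box. Stmn3 had 50.6%, 2 CG dinucleotides and none of the 4 motifs. Over all 32851 promoter windows of the same 180 bases the median was 51.1% G or C and 4 CG dinucleotides; 21.1% of the windows held a GC box, 8.37% a TATA box, 10.7% a CRE half-site and 3.69% an E-box. No CRE half-site and no E-box was in the 4 windows printed. A match describes these letters in this window alone, and no binding was measured. Bases nearer to the start site than 71 lay outside every window, so the windows do not show whether a motif is present there.

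Levels of different genes can be compared only per length. Divided by the exon length of the count table, Stmn3 had the highest level of the 10 genes at 353 CPM per kb (304 to 389 over the 8 mice), followed by Stmn1 at 242 CPM per kb (207 to 257) and Map1a at 131 CPM per kb (124 to 139). Map2 had 77.0 CPM per kb (72.9 to 82.1), Mapt 69.4 (66.3 to 72.0) and Map1b 68.7 (65.2 to 73.2). The ranges of Mapt and Map1b overlapped, and those of all other neighbours in this order did not. The order closed with Stmn2 at 51.4 CPM per kb, Map4 at 34.2, Map6 at 16.5 and Dcx at 3.80 (3.26 to 4.30). Mapt, whose counts may include reads of the human tau transgene, was in the middle of this order. The exon length of a gene sums the exons of all its transcripts, so it understates genes with many alternative exons. With the length of the longest coding transcript, a choice made after the data were seen, Stmn1 stood first at 439 CPM per kb and overlapped Stmn3 (353), Map2 came before Map1a (202 against 135), Stmn2 came next to Map1a at 139 and overlapped it, and Mapt (99.6) overlapped Map1b (92.2), which overlapped Map4 (85.1). Dcx stayed last, at 5.29 CPM per kb.

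**Figure D1:**
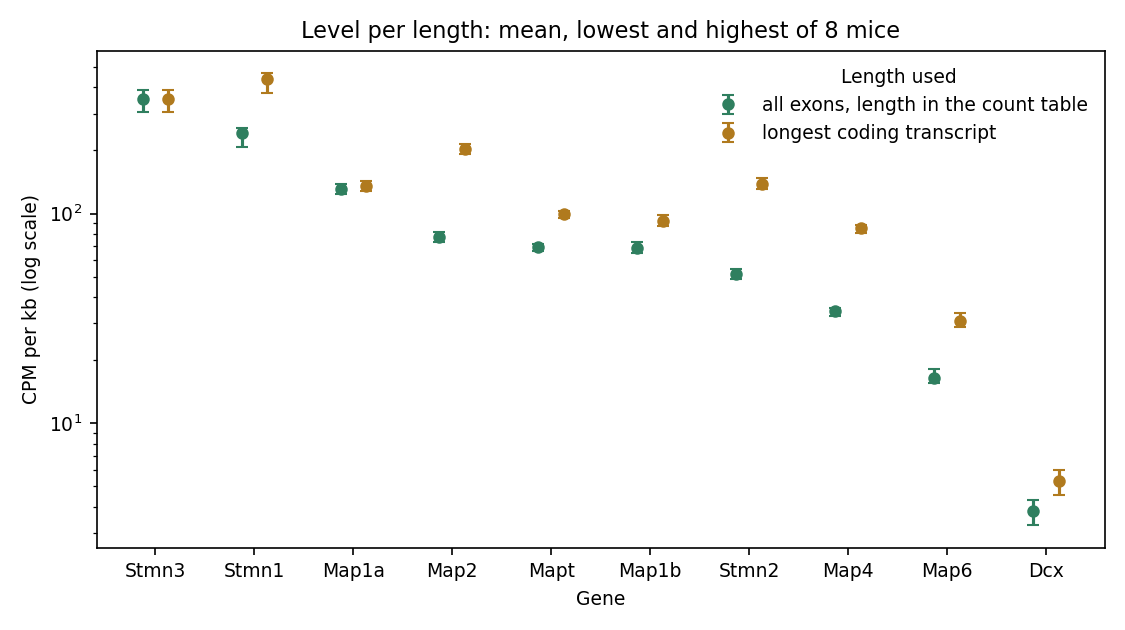
Level per length of the 10 genes, in CPM per kb on a log axis, with the mean of the 8 mice as a point and the lowest and highest mouse as bars. Green uses the exon length of the count table and brown the longest coding transcript; Stmn3 and Stmn1 are at the top and Dcx, at 3.80 or 5.29 CPM per kb, at the bottom by both.

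No difference between the genotypes passed the test for any of the 10 genes, and the largest, that of Stmn1, was a log2 fold change of -0.09. All 10 passed the filter on low counts, and 0 had an unadjusted p under 0.05 by edgeR's quasi-likelihood test, where 2.80% of the 17195 genes tested did (481 genes). By edgeR with Benjamini-Hochberg adjustment 0% of all genes tested passed, and the adjusted p of each of the 10 genes was 0.9996. For comparison, DESeq2 gave 555 genes and limma-voom 492 with an unadjusted p under 0.05, 0 of the 10 among them, and no gene past the adjusted threshold by either. CPM values of the 2 genotypes overlapped for all 10 genes, whereas 2.02% of all genes tested had values that did not. Of the 10, 8 had a lower mean and 2 (Map2 and Dcx) a higher mean in Adrb1-A187V;PS19 mice; the median difference was -0.04 on the log2 scale, and for all tested genes it was 0.00, with 49.8% of them lower. These genes were measured more tightly than most, with a median standard error of 0.05 on the log2 scale against 0.11 for all genes tested. Only 5477 of the genes tested had a mean of at least 40 CPM, as all 10 did, so most were of lower level than these 10. Every 95% interval of the difference contained 0. Taken over the 10 genes, the intervals reached from a fold of 0.854 (the lower bound for Stmn1) to 1.17 (the upper bound for Dcx), so larger changes in either direction lay beyond the interval of each gene.

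**Figure D2:**
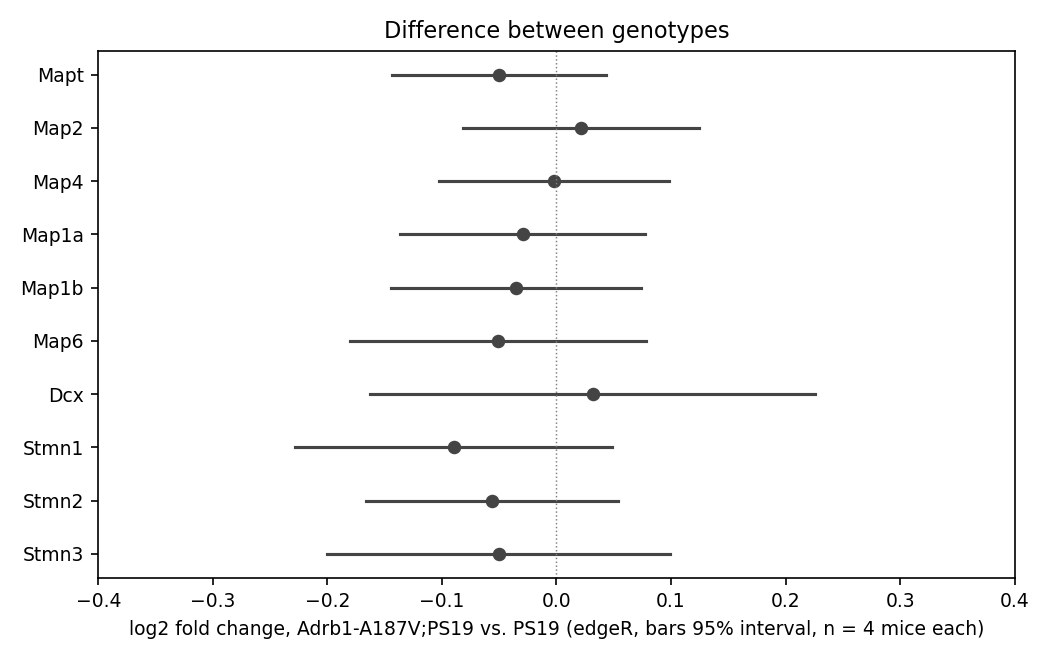
Difference between genotypes for each of the 10 genes, as the log2 fold change of Adrb1-A187V;PS19 vs. PS19 mice (point) with its 95% interval (bar) from edgeR, n = 4 mice per genotype. All 10 bars cross 0; the widest is that of Dcx and the point farthest from 0 is that of Stmn1, at -0.09.

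Mapt (ENSMUSG00000018411; chromosome 11, 104231390 to 104332090, plus strand of GRCm38) is the mouse gene of tau. It had 515, 532, 539 and 542 CPM in PS19 mice m677, m668, m665 and m659 and 511, 537, 508 and 499 CPM in Adrb1-A187V;PS19 mice m671, m661, m660 and m658. Of the Adrb1-A187V;PS19 mice, 3 lay below the lowest PS19 mouse, and m661 lay among the PS19 mice, so the groups overlapped. The means were 532 ± 12.0 CPM (SD, n = 4) and 514 ± 16.3 CPM (SD, n = 4), so that the log2 fold change was -0.05 ± 0.04 (SE; 95% interval -0.14 to 0.04; edgeR, unadjusted p = 0.267; exact permutation p = 0.114, 2-sided). With 4 mice in each group, that permutation cannot give a p below 0.0286. The table holds 0 entries for a human gene. Reads of the human transgene that align to the mouse gene would be counted as Mapt, and their part in these values was not tested. Prnp, the mouse gene whose promoter drives the transgene, had 1613, 1592, 1461 and 1621 CPM in the PS19 mice and 1551, 1509, 1547 and 1442 CPM in the Adrb1-A187V;PS19 mice, which overlapped (log2 fold change -0.06 ± 0.05, SE; edgeR, unadjusted p = 0.249). Within genotypes, no relation of Mapt with Prnp was detectable from mouse to mouse (Pearson's r = -0.04, exact permutation p = 0.889; Spearman's rho = -0.14; 8 mice, as deviations from the genotype mean).

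Mapt varied less within genotypes than most genes with a mean of at least 40 CPM, a set that reaches well below its own level. Its standard deviation within genotypes was 0.04 on the log2 scale, and of the 5477 genes in that set, 4.18% had a smaller one. The corresponding shares were 14.6% for Map4, 26.9% for Stmn2, 27.3% for Map2, 36.3% for Map1a, 37.1% for Map1b, 54.1% for Map6, 71.9% for Stmn1, 79.5% for Stmn3 and 91.4% for Dcx. The coefficient of variation over the 8 mice went from 3.15% for Mapt to 10.1% for Dcx.

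**Figure D3:**
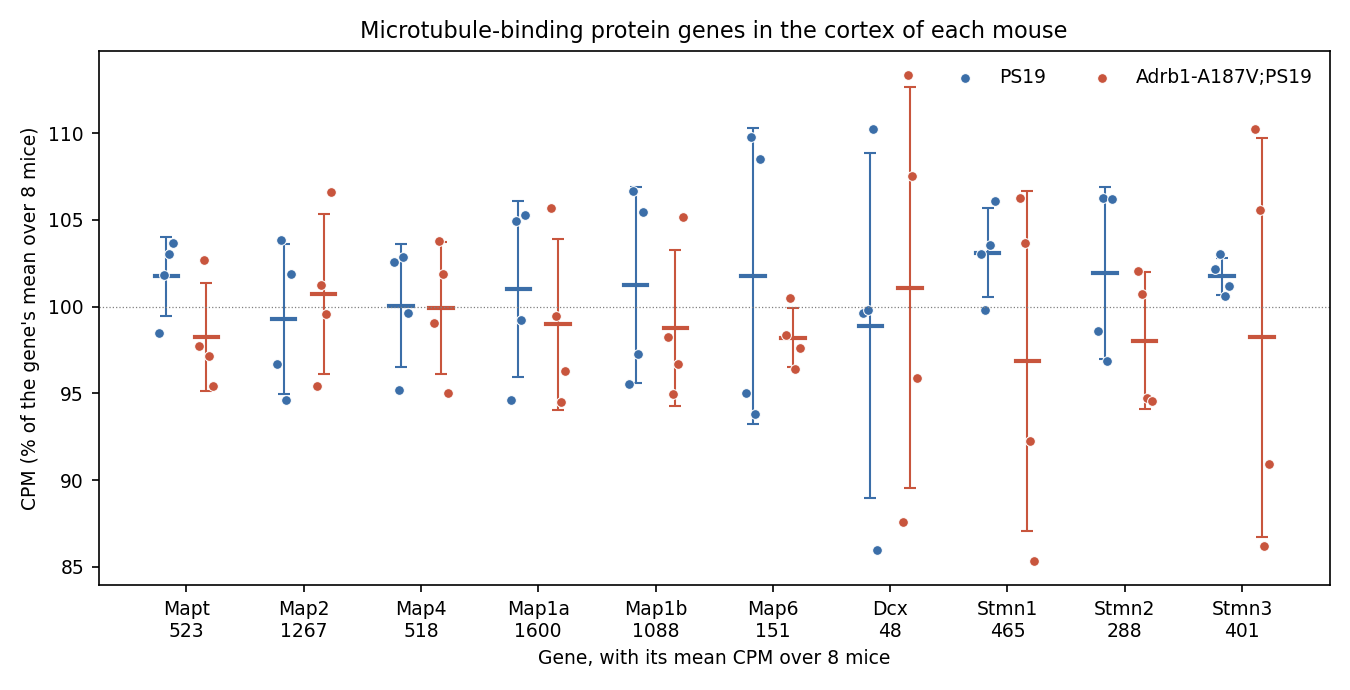
CPM of each gene in each mouse, as a percent of the gene's mean over the 8 mice, which is printed under its name; blue points are PS19 and red points Adrb1-A187V;PS19 mice, with the mean and SD of 4 mice as lines. The genotypes overlap for every gene, the PS19 mice are close together for Stmn3 (403 to 413 CPM), and the Adrb1-A187V;PS19 mice are close together for Map6 (146 to 152 CPM).

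Map2 (chromosome 1, 66175273 to 66442583, plus strand), the mainly dendritic relative of tau, had 1225, 1316, 1199 and 1291 CPM in the PS19 mice and 1209, 1283, 1262 and 1351 CPM in the Adrb1-A187V;PS19 mice. The highest value was in Adrb1-A187V;PS19 mouse m658 and the lowest in PS19 mouse m665, with the other mice of both groups intermixed. The log2 fold change was 0.02 ± 0.05 (SE; 95% interval -0.08 to 0.12), and it turned to between -0.01 and 0.00 when m665 or m658 was left out. Because Map2 and Mapt come from the same library, their ratio does not depend on the scaling between libraries. The log2 ratio of Mapt to Map2 was -1.25, -1.30, -1.15 and -1.25 in the PS19 mice and -1.24, -1.26, -1.31 and -1.44 in the Adrb1-A187V;PS19 mice. Mouse m658, with the most Map2 and the least Mapt, had the lowest ratio, and the remaining mice overlapped. The mean difference of -0.07 did not pass a 2-sided exact permutation test (p = 0.286). Map4 (chromosome 9, 109931460 to 110083955, plus strand), the relative of wide expression, had 532, 494, 533 and 516 CPM against 514, 538, 528 and 493 CPM. Its genotype means, 519 ± 18.5 and 518 ± 19.8 CPM (SD, n = 4 each), lay closest together of the 10 genes, and its log2 fold change was 0.00 (95% interval -0.10 to 0.10).

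Map1a (chromosome 2, 121289600 to 121310832, plus strand), the most abundant of the 10 genes in CPM, had 1514, 1678, 1588 and 1684 CPM in the PS19 mice and 1690.2, 1591, 1511 and 1540.2 CPM in the Adrb1-A187V;PS19 mice. Both groups spanned nearly the same range (log2 fold change -0.03 ± 0.05, SE, 95% interval -0.14 to 0.08). The 3′ end of Map1a shares 272 exon bases, 2.24% of its exons, with Ppip5k1 on the opposite strand, which had 1969 to 2757 counts per mouse. Whether counting used strand is not given in the sources used here, so reads from that stretch cannot be assigned. Map2 shares 124 exon bases with the antisense gene Gm10558 (1 to 7 counts per mouse) and Stmn1 shares 66 with the miRNA gene Gm23634 (1 to 5 counts), while Mapt shares no exon base with the antisense gene Gm11659 inside it. Map1b (chromosome 13, 99421446 to 99516540, minus strand), the family member best known from growing axons, had 1039.7, 1161, 1058 and 1148 CPM against 1069.5, 1033, 1052 and 1144 CPM. PS19 mice m668 and m659 and Adrb1-A187V;PS19 mouse m658 were high and the other 5 mice low, a split that crossed the genotypes (log2 fold change -0.04 ± 0.05, SE, 95% interval -0.14 to 0.07). Map6 (chromosome 7, 99267447 to 99337137, plus strand) had 143, 166, 142 and 164 CPM in the PS19 mice, m668 and m659 again the higher pair, and 149, 152, 146 and 147 CPM in the Adrb1-A187V;PS19 mice, all of them between the 2 PS19 pairs (log2 fold change -0.05 ± 0.06, SE, 95% interval -0.18 to 0.08).

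Stmn1 (chromosome 4, 134468320 to 134473843, plus strand), the ubiquitous stathmin, had 479.7, 465, 482 and 494 CPM in the PS19 mice and 495, 483, 429 and 397 CPM in the Adrb1-A187V;PS19 mice. Mice m660 and m658 were below every PS19 mouse, and m671 was above them all. This was the largest difference of the 10 genes, at -0.09 ± 0.06 on the log2 scale (SE; 95% interval -0.23 to 0.05; edgeR, unadjusted p = 0.184; exact permutation p = 0.400). Without m671 the log2 fold change was -0.14 and the unadjusted p by edgeR 0.0477, and without m658 they were -0.03 and 0.565. Stmn3 (chromosome 2, 181306459 to 181314500, minus strand), a neuronal stathmin, had 409, 413, 403 and 406 CPM in the PS19 mice and 442, 423, 345 and 364 CPM in the Adrb1-A187V;PS19 mice. The PS19 mice lay within 10 CPM of each other, while m671 and m661 lay above and m660 and m658 below all of them. The SD was 4.25 CPM in PS19 and 46.1 CPM in Adrb1-A187V;PS19 mice (n = 4 each), and whether the spread itself differed was not tested. For Stmn3 the log2 fold change was -0.05 ± 0.07 (SE), and 0.01 without m660. Stmn2 (chromosome 3, 8509360 to 8561606, plus strand), a neuronal stathmin of growth cones and regenerating axons, had 284, 306, 279 and 306 CPM against 294, 290.1, 273 and 272 CPM. Mice m660 and m658 were again lowest, as for Stmn1 and Stmn3, and the groups overlapped (log2 fold change -0.06 ± 0.05, SE, 95% interval -0.17 to 0.05).

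Dcx (chromosome X, 143855842 to 143933311, minus strand), the marker of immature neurons, was the least abundant and the most variable of the 10 genes, with 47.8, 47.9, 52.9 and 41.3 CPM in the PS19 mice and 42.0, 54.4, 51.6 and 46.0 CPM in the Adrb1-A187V;PS19 mice. The low mice, m659 and m671, and the high mice, m661 and m665, came from both genotypes. The log2 fold change was 0.03 ± 0.09 (SE; 95% interval -0.16 to 0.23), and it was -0.03 when m659 or m661 was left out. The 10 markers of immature neurons, fixed as a list, had a median difference of 0.05 (log2), with 0 of 10 at an unadjusted p under 0.05 by edgeR.

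From mouse to mouse, some pairs of the genes had a high correlation, but none passed correction. Deviations from the genotype mean were correlated over the 8 mice for the 45 pairs of genes, and significance was taken from exact permutation within genotypes. None of the 45 pairs passed Benjamini-Hochberg adjustment, and the median Pearson's r was 0.21. The highest correlation of the 45 was that of Map1a and Stmn2 (r = 0.88, Spearman's rho = 0.67, exact permutation p = 0.0365, adjusted p = 0.506). Its r was 0.90 without m677 and m671, 0.86 within PS19 and 0.91 within Adrb1-A187V;PS19 mice. Stmn1 and Stmn3 had r = 0.83 over all mice, yet r = -0.77 within the PS19 mice, whose values were nearly constant, and r = 0.88 within the Adrb1-A187V;PS19 mice. Map1b and Map4 formed the pair with the lowest correlation: the 3 mice high in Map1b (m668, m659 and m658, 1144 to 1161 CPM) had 494, 516 and 493 CPM of Map4, and the 5 mice low in Map1b (1033 to 1069.5 CPM) had 514 to 538 CPM of Map4. Since the mice fell into these 2 sets, no pooled correlation is given for that pair, and none was computed within the sets, which hold fewer than 6 mice each.

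**Figure D4:**
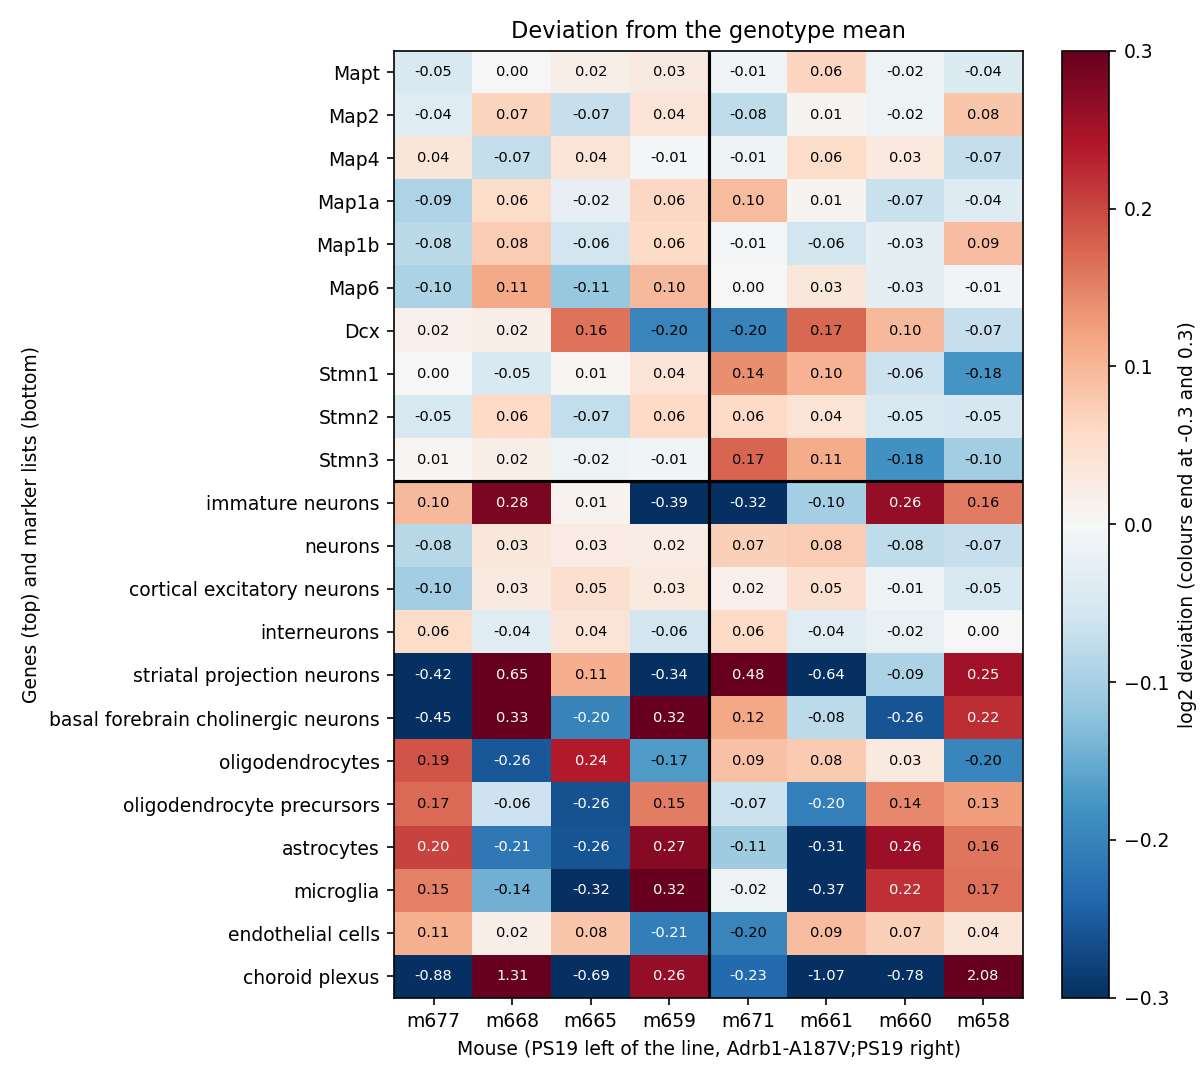
Log2 deviation of each gene (top) and of the mean of each marker list (bottom) from the mean of its genotype, by mouse, with PS19 mice on the left; colours end at -0.3 and 0.3 and the printed numbers do not. Mice m668, m659 and m658 share positive Map2 and Map1b and negative oligodendrocyte values, and m660 and m658 share negative Stmn1, Stmn2 and Stmn3 values.

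The split in Map1b ran beside the markers of oligodendrocytes, the myelinating cells, and those of choroid plexus and basal forebrain cholinergic neurons. The mean log2 deviation of the 8 oligodendrocyte markers was -0.26, -0.17 and -0.20 in m668, m659 and m658, the mice high in Map1b, and between 0.03 and 0.24 in the other 5. The same 3 mice had the highest Map2 (1291 to 1351 CPM, against 1199 to 1283). The choroid plexus list, led by Ttr, was also high in them, at 1.31, 0.26 and 2.08, against -1.07 to -0.23 in the other 5. So was the basal forebrain cholinergic list, at 0.325, 0.321 and 0.222, against -0.445 to 0.116 in the other 5. In m659 the choroid plexus markers did not all go this way. Ttr (129 CPM), Kl (11.3 CPM) and Aqp1 (1.69 CPM) were above the other 5 mice. Clic6 (4.28 CPM) and Folr1 (0.723 CPM) were below m677 (6.80 and 1.16 CPM) and above m665 (2.93 and 0.425 CPM). By summed level the oligodendrocyte list was at 5126 to 6909 CPM in PS19 and 5366 to 6413 CPM in Adrb1-A187V;PS19 mice, and the choroid plexus list at 24.6 to 369 and 27.2 to 582 CPM, with 0 of 8 and 0 of 5 markers at an unadjusted p under 0.05 between genotypes. The part of these cells in the levels of Map1b, Map2 and Map4 was not tested. Of the 120 relations of the 10 genes with 12 marker lists, none passed Benjamini-Hochberg adjustment (smallest adjusted p = 0.156). Mapt went with cortical excitatory neurons (Pearson's r = 0.86, Spearman's rho = 0.93, exact permutation p = 0.00521, adjusted p = 0.156; r = 0.77 without the 2 mice farthest from the median) and ran against the share of mitochondrial counts, which was 4.58 to 5.31% (r = -0.86, exact permutation p = 0.0226, adjusted p = 0.347 over 20 relations; r = -0.66 without m677 and m661). Among 10184 protein-coding genes with at least 10 CPM, the 5 whose deviations were most like those of Mapt over the 8 mice were Csnk2a1 (r = 0.96), Alg1, Spg7, Vps45 and Rwdd2a (r = 0.95 each), chosen as the highest of all and so given without a test.

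**Figure D5:**
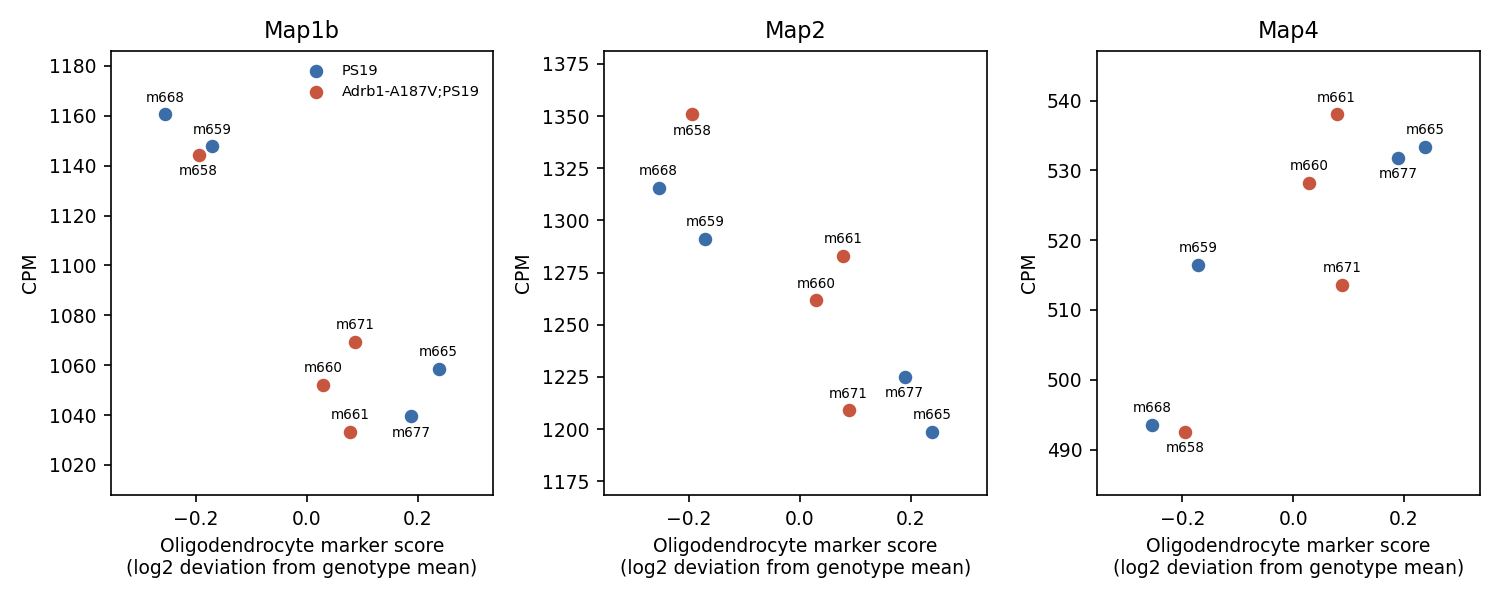
CPM of Map1b, Map2 and Map4 in each mouse against the mean log2 deviation of 8 oligodendrocyte markers from the genotype mean; blue points are PS19 and red points Adrb1-A187V;PS19 mice. The mice m668, m659 and m658, on the left, have 1144 to 1161 CPM of Map1b, and the 5 mice on the right have 1033 to 1069.5 CPM.

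Marker lists of other cells are given here beside the 10 genes. Their counts are to be read against 2.80%, the share of all genes tested with an unadjusted p under 0.05 by edgeR. No marker passed adjustment and no list was tested as a whole. The lists were chosen with earlier results of these data known, so their counts are not independent of these data. All 7 markers of basal forebrain cholinergic neurons were higher in Adrb1-A187V;PS19 mice, each with an unadjusted p under 0.05 by edgeR, with a median difference of 0.69 (log2) and summed levels of 17.1 to 32.4 CPM in PS19 and 34.7 to 48.8 CPM in Adrb1-A187V;PS19 mice. The 9 striatal projection neuron markers were all higher, with a median of 0.34 and overlapping sums (977 to 1950 and 1021 to 2186 CPM); only Tac1 had an unadjusted p under 0.05. Of the 10 cortical excitatory markers, 3 were lower and 1 higher at that threshold, with a median of -0.10. Of the 7 interneuron markers, 2 were higher (Gad2 and Slc32a1) and 1 lower (Vip) at that threshold, with a median of 0.05. Gad2 alone of these 7 did not overlap between genotypes, where 2.02% of all genes tested did not. The general neuronal list had a median of -0.04, the value also found for the 10 microtubule genes, with 0 of 6 markers past the threshold. The part of these differences in the values of the 10 genes was not tested.

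Other genes of the microtubule system had median differences near 0. Of 111 genes in 5 fixed lists, 110 were tested: 42 were higher and 68 lower in Adrb1-A187V;PS19 mice, the median difference was -0.02 (log2), and 1 gene in each direction had an unadjusted p under 0.05 by edgeR, against 2.80% of all genes tested. Both were among the 39 other structural and tip-binding proteins (13 higher, 26 lower, median -0.03). Mid2, a ubiquitin ligase that binds microtubules, had 31.6, 30.2, 33.9 and 31.0 CPM in the PS19 mice and 33.7, 34.7, 35.4 and 36.4 CPM in the Adrb1-A187V;PS19 mice (log2 fold change 0.14 ± 0.06, SE; edgeR, unadjusted p = 0.0422). PS19 mouse m665 reached into the range of the other group. Dpysl4, of the collapsin response mediator family, had 43.4, 41.8, 39.6 and 45.0 CPM against 36.7, 35.7, 42.9 and 35.9 CPM (log2 fold change -0.17 ± 0.07, SE; edgeR, unadjusted p = 0.0420), with m660 inside the PS19 range. Each lost this call when any of 6 mice was left out: Mid2 kept it only without m665 or m671 (unadjusted p up to 0.102 otherwise), and Dpysl4 only without m665 or m660 (up to 0.116). With all 8 mice, the unadjusted p of Mid2 was 0.0676 by DESeq2, 0.0495 by limma-voom and 0.0855 by edgeR with no count filter, and that of Dpysl4 was 0.0486, 0.0422 and 0.0371.

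Tubulins, of which the lattice is built, did not pass the threshold with all 8 mice, though Tubb2a and Tuba1c, examined with each mouse left out, each did so without 1 mouse. Of 16 tubulin genes, 7 were higher and 9 lower, with a median difference of 0.00 (log2) and 0 at an unadjusted p under 0.05. Tubb2a, a neuronal β-tubulin, had the smallest p among them (291 ± 28.8 against 265 ± 11.7 CPM, SD, n = 4 each; log2 fold change -0.13; edgeR, unadjusted p = 0.0689), followed by Tuba1c (9.04 against 10.6 CPM; 0.22; unadjusted p = 0.139 by edgeR). Tubb2a passed without m665 (-0.19; edgeR, unadjusted p = 0.00661) and with no count filter (unadjusted p = 0.0275), and was at -0.08 without m668 (unadjusted p = 0.240). Tuba1c passed without m661 (0.32; edgeR, unadjusted p = 0.0421) and was at 0.13 without m671 (unadjusted p = 0.387). Of 27 tubulin-modifying and severing enzymes tested of 28, 15 were higher and 12 lower, 0 past the threshold. Agbl2, a deglutamylase, had the smallest p but only 0.796 to 3.59 CPM (log2 fold change 0.70 ± 0.34, SE; edgeR, unadjusted p = 0.0632). The highest mouse was m661, and without it the log2 fold change of Agbl2 was 0.30 (edgeR, unadjusted p = 0.353); without m671 it was 0.87 (unadjusted p = 0.0247), and with no count filter the unadjusted p was 0.0224. Spast, which severs microtubules, had 71.2 against 67.1 CPM (-0.08; unadjusted p = 0.159 by edgeR).

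Of 19 axonal transport motor genes, 16 were lower and 3 higher, with a median of -0.02 and 0 at an unadjusted p under 0.05 by edgeR. Dync1h1, the heavy chain of cytoplasmic dynein, had 721, 765, 725 and 744 CPM in the PS19 mice and 711, 695, 669.6 and 700.2 CPM in the Adrb1-A187V;PS19 mice. All 4 Adrb1-A187V;PS19 mice lay below all 4 PS19 mice, by -0.09 ± 0.04 on the log2 scale (SE; edgeR, unadjusted p = 0.0513; 0.0322 by DESeq2 and 0.0407 by limma-voom). Leaving out 1 mouse moved its unadjusted p by edgeR between 0.0395 (without m671) and 0.145 (without m660). Of the 110 genes, 3 did not overlap between genotypes, where 2.02% of all genes tested did not; beside Dync1h1 these were Dctn2, a subunit of the dynactin complex that works with dynein (206 ± 4.80 against 197 ± 2.19 CPM, SD, n = 4 each), and Tppp, a tubulin polymerization-promoting protein of oligodendrocytes (653 ± 29.4 against 618 ± 14.0 CPM). Dctn2 and Tppp are named after their values were seen, and neither had an unadjusted p under 0.05 by edgeR (0.136 and 0.103). Kif3b, a kinesin-2 motor, had 101 against 94.1 CPM (log2 fold change -0.10; unadjusted p = 0.105 by edgeR). Without m658 it had -0.15 (edgeR, unadjusted p = 0.0190). Of 9 neurofilament and axon initial segment genes, 4 were higher and 5 lower, 0 past the threshold; Sptbn4, the spectrin of the initial segment, had 286 against 273 CPM (-0.07; unadjusted p = 0.160 by edgeR), and Prph, peripherin, 1.79 against 1.26 CPM (-0.46; unadjusted p = 0.305 by edgeR; -0.16 without m658 and -0.89 without m661).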

How the data were processed

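Cortical RNA of 8 mice was sequenced by bulk RNA-seq, 1 library per mouse. The authors aligned the reads to GRCm38 with HISAT2 2.0.5, counted them per Ensembl gene with featureCounts 1.5.0-p3 and deposited raw counts without normalization (tools per the submitters' processing notes and the paper's methods); strand and multiple-mapping settings are not given in the sources used here. The study compared the groups with DESeq2 1.20.0. The gene lengths in the table equalled GENCODE M21 exon lengths for the 10 genes.

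Here the counts were filtered with filterByExpr (17195 genes kept of 54532), scaled with TMM factors (0.990 to 1.01) and compared in R 4.3.3 by the quasi-likelihood test of edgeR 4.0.16 (glmQLFTest after glmQLFit, without covariates, 2-sided, Benjamini-Hochberg over all genes tested). Standard errors are the log2 fold change over the square root of F, and 95% intervals use the total degrees of freedom of the fit. CPM carry the TMM factors, log2 CPM a prior count of 2. Exact permutation tests covered all 70 assignments of 4 mice against 4, or 576 permutations within genotypes for correlations. Alternatives were DESeq2 1.42.0, limma-voom (limma 3.58.1), DESeq2 size factors, other count filters, protein-coding genes alone, other scales and the omission of single mice. The code was tested on simulated counts.

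The genes, the lists of microtubule genes and cell type markers and the tests were chosen with earlier results of these data known. Genes outside the 10 were named by a rule: those of each list with an unadjusted p under 0.05 or the 2 with the smallest p, the 5 most like Mapt, and genes that overlap or copy one of the 10 (of the overlaps, those that share exon bases and the antisense gene in Mapt are given; copies are not reported here). Libraries of 1 genotype differed by more than sampling noise (chi-square of 4.83 to 9.94 per degree of freedom), so none was a copy. The labels name separate mice but no litter, so p-values measure the spread between these mice. Depth was 14653222 to 21223754 counts per mouse, and the standard errors of the 10 genes, which include the spread between mice, were 0.04 to 0.09 on the log2 scale. Promoter windows came from RefSeq entries for GRCm38.p6, which matched 6 of the 10 genes, and 4 windows were printed. No window was printed for Mapt, Map4, Map6, Dcx, Stmn1 and Stmn2. Protein sequences and reads were not analysed here.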

Additional observations from a re-analysis of the deposited data

How the results depend on the processing

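Over 14 alternatives, the 10 genes gave 140 results, of which 130 had the same direction and side of the threshold as reported. Other tests, size factors, filters and gene sets left all 10 directions as they were and passed 0 of the 10 at an unadjusted p under 0.05. With no filter beyond 1 count, 1366 genes in all passed that threshold in edgeR (66 after adjustment) against 481, and 4 genes of the other microtubule lists against 2; that fit tests more genes of low count. Leaving out 1 mouse at a time gave 0 to 1 of the 10 genes, the 1 being Stmn1 without m671, and 1 to 4 genes of the other lists. The log2 fold change then ran from -0.01 to 0.05 for Map2 (reversed at -0.000715 without m665 and -0.00778 without m658), from -0.03 to 0.02 for Map4 (0.0113 without m677, 0.0123 without m665, 0.00131 without m671, 0.0211 without m658), from -0.03 to 0.09 for Dcx (-0.0309 without m659, -0.0294 without m661) and from -0.11 to 0.01 for Stmn3 (0.00752 without m660). Stmn1 ran from -0.14 to -0.03. Mapt stayed between -0.07 and -0.04, with unadjusted p of 0.147 to 0.461 over all its alternatives. Without TMM factors the difference of mean log2 level of Map4 was 0.00246. No paired analysis was possible because mice carry individual numbers, with no litter named.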
